A study of Mus musculus with 2 samples.

Results

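The 9 genes described here encode transcription factors of the STAT and interferon regulatory factor (IRF) families: Stat2, Stat3, Irf1, Irf2, Irf3, Irf5, Irf7, Irf8 and Irf9. They were taken by gene symbol, and each matched 1 row of the 32589 features that both libraries list. Type I interferons and related cytokines bind receptors that carry Janus kinases, and these kinases phosphorylate STAT proteins. STAT2 with its usual STAT partner and IRF9 forms ISGF3, the complex that switches on interferon-stimulated genes. IRF3, IRF5 and IRF7 act on the other side of the loop, where sensors of nucleic acids and microbial products activate them and they drive interferon and cytokine genes. IRF1 and IRF2 bind overlapping sites as activator and mainly repressor, STAT3 serves interleukin-6 and interleukin-10 signals, and IRF8 is a lineage factor of microglia and other myeloid cells.

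Microglia were sorted as CD45low CD11b+ cells from the prefrontal cortex of C57BL/6 mice and profiled with a GEXSCOPE single-cell RNA kit. The groups were vehicle and corticosterone, the main glucocorticoid of rodents, given by oral gavage to model depression under an excess of this hormone. Each group was 1 library, and the labels do not give the age, the sex, the dose, the duration or the number of animals. No difference below therefore had a replicate check, no test between groups was possible, group and library cannot be told apart, and 95% intervals cover counting error only.

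The vehicle library held 10500 cells and 49325067 UMIs after filtering, and the corticosterone library held 17883 cells and 85103539 UMIs, with medians of 3220.5 and 3961 UMIs per cell. The 2 libraries shared 101 cell barcodes. Cells were clustered and named from marker genes. Microglia-like cells, with P2ry12 and Tmem119 among their markers, made up 8186 vehicle and 15490 corticosterone cells. Border-associated macrophage-like cells numbered 1169 and 780, neutrophil-like cells 203 and 275, and monocyte-like cells 64 and 112. Within the microglia-like class, 82.4% of vehicle cells lay in 1 joint cluster and 63.9% of corticosterone cells in another. All 10 microglial markers were detected in both libraries of the microglia-like class, with summed levels of 37732 and 32597 counts per 1000000 UMIs (CPM). The share of mitochondrial UMIs also moved with the group, with medians of 2.67% and 4.20% per cell, and its part in the results was not tested.

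The upstream sequence of each gene was searched for 2 motifs that these families bind. The windows reached from 250 bases before to 50 bases after each annotated start, came from RefSeq (GRCm38.p6), and covered all 9 members. The interferon response element was searched as GAAANNGAAA on both strands, and the STAT site as the palindrome TTCNNNGAA. The stretches below show the members with a match, with 1 match per line in capitals, and further matches in the Irf2 and Irf8 stretches are in lower case.
Stat2: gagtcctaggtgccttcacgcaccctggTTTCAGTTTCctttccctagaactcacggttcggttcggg
Irf2: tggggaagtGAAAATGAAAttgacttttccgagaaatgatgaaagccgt
Irf1: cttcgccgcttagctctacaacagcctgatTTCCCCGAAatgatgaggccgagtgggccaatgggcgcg
Irf8: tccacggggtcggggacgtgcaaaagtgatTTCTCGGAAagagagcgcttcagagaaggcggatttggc

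The Stat2 stretch lies at chr10:128270248-128270315 on the plus strand, and its match, read on the minus strand, spans bases -222 to -213 from the start. The Irf2 stretch lies at chr8:46739495-46739543, plus strand, with its match at -241 to -232, and Irf2 also holds the STAT motif at -224 to -216. The Irf1 stretch lies at chr11:53769894-53769962, plus strand, with the STAT motif at -90 to -82. The Irf8 stretch lies at chr8:120736157-120736225, plus strand, with the STAT motif at -171 to -163 and another copy at -153 to -145. The interferon response element was thus present in 2 of 9 members, against 3.99% of 27025 genes, and the STAT motif in 3 of 9, against 9.55%. The windows of Stat3, Irf3, Irf5, Irf7 and Irf9 held neither run of letters. A match is a run of letters and not a measured binding site, and the search says nothing beyond these windows.

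In microglia-like cells Irf7, Stat2 and Irf9 were the members with the highest ratios of corticosterone over vehicle. Irf7, the IRF that amplifies type I interferon production, gave 218 UMIs in vehicle, a level of 6.51 CPM (interval 5.67 to 7.43), and 3321 UMIs in corticosterone, a level of 45.5 CPM (interval 44.0 to 47.1). That is a 6.99-fold difference, or 2.81 on the log2 scale (2.61 to 3.01), and 5 of the 6614 genes compared had a higher log2 ratio. Stat2, which encodes a STAT subunit of ISGF3, measured 27.4 CPM (25.7 to 29.3) in the vehicle library and 67.2 CPM (65.3 to 69.1) in the corticosterone library. Its log2 ratio was 1.29 (1.19 to 1.40). Irf9, the DNA-binding subunit of ISGF3, was at 62.6 CPM (59.9 to 65.3) and 102.6 CPM (100.3 to 104.9), a log2 ratio of 0.71 (0.64 to 0.78). The counting intervals of the 2 libraries did not overlap for any of these 3 genes, nor for Irf2, Irf5 and Irf8 below. The share of all genes with such intervals was not counted.

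The myeloid and toll-like receptor factors differed less. Irf8 measured 691 CPM (682 to 700) in the vehicle library and 853 CPM (846 to 860) in the corticosterone library, with a log2 ratio of 0.30 (0.28 to 0.33). Irf5, which works downstream of toll-like receptors, was at 277 CPM (271 to 283) and 357 CPM (353 to 362), a log2 ratio of 0.37 (0.33 to 0.40). Both were higher in corticosterone by more than counting error and by less than 1.5 times.

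Among the other members, Irf2 was the lowest in corticosterone relative to vehicle. Irf2, which competes with IRF1 for its sites, measured 151 CPM (147 to 156) in the vehicle library and 125 CPM (122 to 127) in the corticosterone library, with a log2 ratio of -0.28 (-0.33 to -0.23). Irf3, the sensor-activated IRF that cells hold ready in an inactive form, was at 62.1 CPM and 58.6 CPM, a log2 ratio of -0.08 (-0.16 to -0.01). Stat3 was at 98.2 CPM and 95.9 CPM, with a log2 ratio of -0.03 (-0.09 to 0.03). Irf1 was at 134 CPM and 136 CPM, with a log2 ratio of 0.02 (-0.03 to 0.07). The intervals of the Stat3 and Irf1 ratios included 0, and the direction of Irf3 and Stat3 depended on the scaling. With DESeq2 size factors Irf3 was at 0.04 and Stat3 at 0.09. Without the interferon-high cells described below Irf1 was at -0.05.

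**Figure D1:**
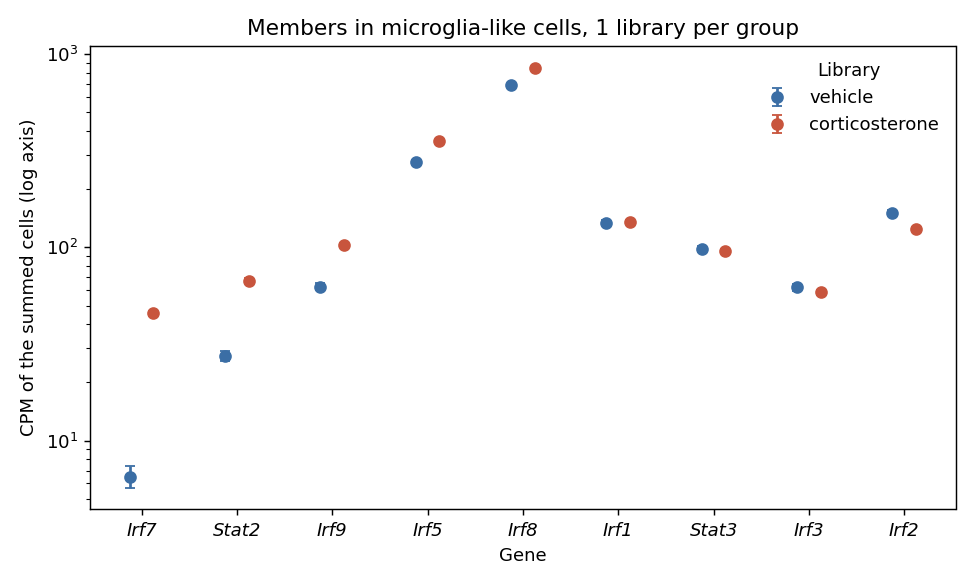
Levels of the 9 genes in microglia-like cells, as CPM of the UMIs summed over all cells of a library, on a log axis. Points are the 2 libraries (vehicle blue, corticosterone red) and bars are exact 95% Poisson intervals, many smaller than the points. The pairs for Irf7, Stat2 and Irf9 stand farthest apart, and those for Irf1, Stat3 and Irf3 lie close together.

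Counted over the list, 3 of the 9 members were higher in corticosterone by at least 1.5 times, where 5.32% of the 6614 genes with a mean of at least 20 CPM were. None was lower by that much, where 4.73% of the genes were. With edgeR scaling factors 7.36% of all genes were higher and 3.37% lower, and the members' counts were the same. All 9 members passed that level, and their median log2 ratio was 0.30, against -0.00 for all genes tested. Irf7 passed it only through the corticosterone library. Of the 8 members that passed it in both libraries 2 were higher and 0 lower, with a median of 0.16. The members were listed with results of these libraries known, so the count is a description of them.

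The share of cells with a UMI was compared after thinning each cell to 1000 UMIs, which left 7555 vehicle and 15390 corticosterone microglia-like cells and left out 631 and 100. Irf7 was found in 0.688% (0.514 to 0.902) of vehicle cells and 4.00% (3.70 to 4.32) of corticosterone cells. Stat2 was found in 2.62% (2.27 to 3.01) and 6.32% (5.94 to 6.71), and Irf9 in 6.01% (5.48 to 6.57) and 9.94% (9.47 to 10.4). Irf8, the lineage factor, was found in 47.9% (46.8 to 49.0) and 56.1% (55.3 to 56.9). These shares ordered the libraries as the CPM did for each of these 4 genes. Without thinning, the shares were 2.20% and 13.2% for Irf7, 8.82% and 20.7% for Stat2, 18.7% and 33.2% for Irf9, and 80.1% and 92.6% for Irf8. Irf2 was found in 13.7% of thinned vehicle cells and 11.6% of thinned corticosterone cells, while the unthinned shares stood at 38.1% and 39.1%, the opposite order, at median depths of 3187.5 and 4009 UMIs. Free RNA could not be gauged from cells that should lack these genes, because the erythroid cell-like class had 17 and 5 cells. At full depth its 17 vehicle cells, of median depth 4777 UMIs, gave 3 Irf7 UMIs, or 36.1 CPM (7.44 to 105), in 5.88% of them, and its 5 corticosterone cells gave 0. After thinning, 0 of the 17 held an Irf7 UMI (exact binomial upper bound 19.5%).

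A second round of clustering within the microglia-like class set apart a group led by Ifi211, Ifit3b and Ifit3, which had the highest summed level of ISGF3 targets of the 9 sub-clusters. It held 271 vehicle cells (3.31% of the class) and 1269 corticosterone cells (8.19%). Irf7 and Stat2 were among the genes used in the first round of clustering, and which members entered the second was not recorded. The excess of any member in this group is therefore a description and no test. The group contained 46.3% of all microglia-like Irf7 UMIs in vehicle and 51.4% in corticosterone. Irf7 stood at 85.4 CPM inside it and 3.62 CPM outside it in vehicle, and at 265 CPM and 24.2 CPM in corticosterone. Stat2 stood at 114 CPM inside and 24.3 CPM outside in vehicle, and at 237 CPM and 50.7 CPM in corticosterone. The inside-to-outside ratio of Stat2 was thus close in the 2 libraries, at 4.71-fold and 4.67-fold, while that of Irf7 was 23.6-fold and 10.9-fold.

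The difference between libraries was present on both sides of that division. Inside the interferon-high group the log2 ratio of corticosterone over vehicle was 1.63 (1.34 to 1.94) for Irf7 and 1.05 (0.80 to 1.32) for Stat2. Without the group it was 2.74 for Irf7, 1.07 for Stat2 and 0.72 for Irf9 over the remaining microglia-like cells. For Irf9 the ratio inside the group was 0.21 (-0.07 to 0.49), from 105 CPM in the vehicle library and 121 CPM in the other, and its interval included 0. In the 2 largest sub-clusters, of 11671 and 9176 cells, Irf7 was at 3.98 and 2.07 CPM in vehicle and 25.9 and 19.1 CPM in corticosterone. Whether these ratios differ between the sub-clusters was not tested.

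Cells were also graded by genes that are none of the 9 members. Each thinned microglia-like cell was placed in 1 of 5 bins by its UMIs from 26 ISGF3 target genes, which are interferon-stimulated genes such as Isg15, Ifit3 and Bst2. In vehicle 54.0% of cells held 0 such UMIs and 0.543% (41 cells) held 6 or more, and in corticosterone 28.6% held 0 and 5.03% (774 cells) held 6 or more. From the lowest to the highest bin Irf7 went from 4.11 to 184 CPM in vehicle and from 19.0 to 324 CPM in corticosterone. Stat2 went from 22.7 to 239 CPM in vehicle and from 40.7 to 280 CPM in corticosterone. Irf1, an early target of STAT signalling itself, went from 131 to 245 CPM and from 122 to 231 CPM. Irf9 went from 58.8 to 171 CPM in vehicle and from 93.6 to 128 CPM in corticosterone. For Stat3, Irf3 and Irf5 the log2 ratios of the highest over the lowest bin lay between -0.55 and 0.07, with intervals that included 0 in both libraries. For Irf2 they were 0.41 (-0.14 to 0.91) in vehicle and 0.37 (0.24 to 0.50) in corticosterone, and for Irf8 0.36 (0.11 to 0.60) and 0.10 (0.04 to 0.15). The bins share each library's cells and depth, so these levels are a description within 2 libraries.

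Among cells with 0 ISGF3 target UMIs the libraries still differed. There, the log2 ratio of corticosterone over vehicle was 2.20 (1.84 to 2.58) for Irf7, 0.84 (0.67 to 1.02) for Stat2 and 0.67 (0.56 to 0.78) for Irf9. Among cells with 6 or more it was 0.82 (0.30 to 1.39) for Irf7, 0.23 (-0.23 to 0.73) for Stat2 and -0.43 (-0.97 to 0.18) for Irf9, and the last 2 intervals included 0. Irf1, in contrast, had a log2 ratio of -0.10 (-0.18 to -0.02) in the lowest bin and -0.09 (-0.54 to 0.41) in the highest. Irf1 thus differed more between the lowest and highest bins than between the libraries. A cell with 0 target UMIs among 1000 may still carry such transcripts, so the lowest bin is a limit of depth and not a lack of signalling.

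**Figure D2:**
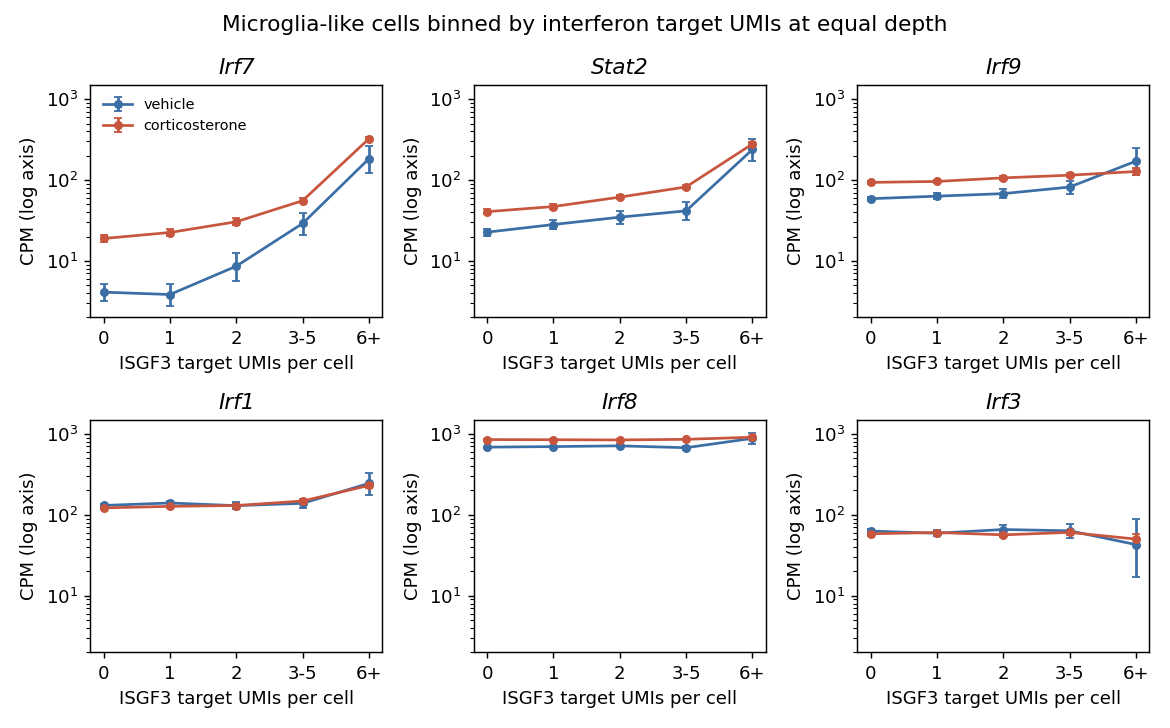
Levels of 6 members in microglia-like cells grouped by the number of ISGF3 target UMIs among 1000 UMIs of the cell (horizontal axis, 0 to 6 or more). The vertical log axes give CPM of all UMIs of the cells in a bin, with exact 95% Poisson intervals, for vehicle (blue) and corticosterone (red). Irf7 and Stat2 climb steeply in both libraries, Irf9 and Irf1 less, and Irf8 and Irf3 stay nearly level.

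Other genes of the pathway were read from lists, with counts over the genes of a list that reached 20 CPM in microglia-like cells. Of the ligands, 7 of 13 genes had a UMI. Ifnb1, the interferon-beta gene, had 27 UMIs in vehicle and 273 in corticosterone, or 0.806 and 3.74 CPM, a log2 ratio of 2.21 (1.64 to 2.84). Ifna2 had 11 UMIs in vehicle and 1 in corticosterone, a log2 ratio of -4.58 whose interval ended at -1.80. Ifna1, Ifna4, Ifna5, Ifng, Ifnk and Ifne had 0 in both. Osm, encoding oncostatin M, was at 112 and 121 CPM, Il6 at 25.9 and 19.7 CPM, Il27 at 8.98 and 9.99 CPM, Il10 at 0.477 and 0.343 CPM, and Lif at 0.119 and 0.315 CPM. Of these ligands, Ifnb1 and Ifna2 had ratio intervals that lay beyond 1.5 times, in opposite directions and both from few UMIs.

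Of the 13 receptors and Janus kinases, 0 were higher by at least 1.5 times, where 5.32% of all genes were, and 1 was lower, where 4.73% were. Ifngr2, a subunit of the interferon-gamma receptor, had the highest log2 ratio at 0.46 (208 and 287 CPM). Il6st, the shared gp130 receptor subunit through which interleukin-6 reaches STAT3, had the lowest at -0.61 (240 and 157 CPM). Of 11 sensing adaptors and kinases upstream of IRF3, IRF5 and IRF7, none passed 1.5 times in either direction. They ranged from Tbk1, a kinase of IRF3, at 0.10 to Mavs, the adaptor of RNA sensors, at 0.46. Of 14 inhibitors, 1 was higher, Usp18, an interferon-induced brake on the type I receptor, at 7.31 and 46.8 CPM (log2 ratio 2.68). Usp18 reached 20 CPM only through the corticosterone library, and of the 13 inhibitors that reached it in both libraries 0 were higher and 0 lower. The lowest inhibitor was Pias2 at -0.39.

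The lists of target genes were read in the same way, where 5.32% of all genes were higher by at least 1.5 times and 4.73% lower. Of the ISGF3 targets, 16 of the 26 found reached the level and 15 were higher, with a median log2 ratio of 1.34, from Herc6 at 0.51 to Usp18. Ifit2, Ifit3, Oasl2 and Usp18 reached the level only through the corticosterone library, and of the 12 that reached it in both libraries 11 were higher, with a median of 0.94. Of 10 interferon-gamma and IRF1 targets, 6 were higher, with a median of 0.76. They ran from Socs1 at 0.10 to Tap1, a peptide transporter of antigen presentation, at 1.08. Gbp3 reached the level only through corticosterone, and of the 9 that reached it in both libraries 5 were higher, with a median of 0.65. Irf1 itself was at 0.02. Of 11 STAT3 targets, 3 were higher, with a median of 0.31, from Junb at -0.18 to the kinase gene Pim1 at 1.60. Pim1 also reached the level only through corticosterone, and of the 10 that reached it in both libraries 2 were higher, with a median of 0.30. Stat3 itself was at -0.03. Of 11 partners of IRF8 and microglial lineage factors none passed 1.5 times, with a median of -0.14, from Sall1, a microglial identity factor, at -0.51 to Batf3 at 0.50. Several lists share regulators, and the ISGF3 and IRF1 lists in particular hold genes that more than 1 of these factors can drive.

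**Figure D3:**
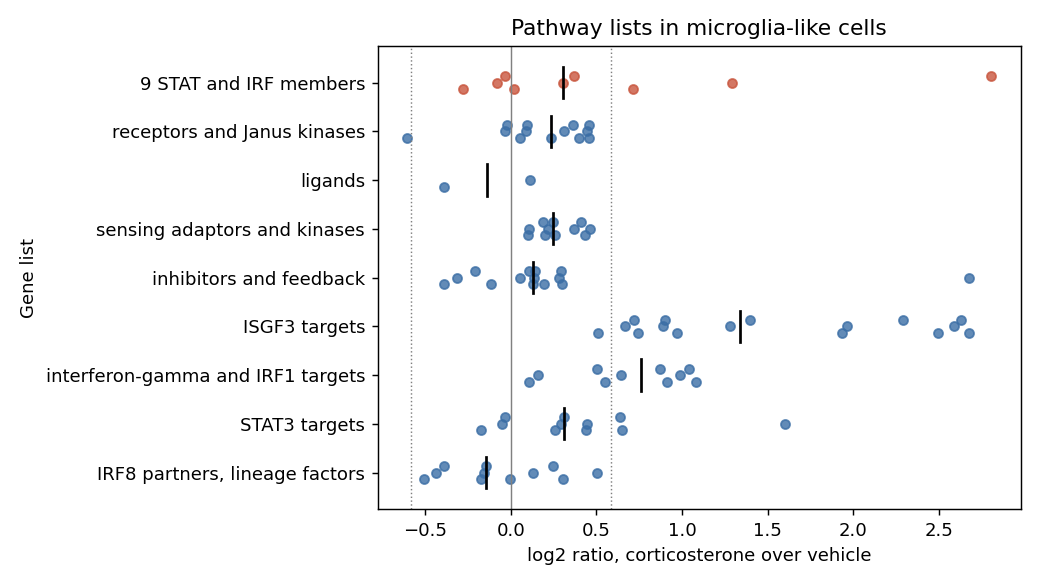
The log2 ratio of corticosterone over vehicle in microglia-like cells for the 9 members (red) and for the genes of each pathway list that reached a mean of 20 CPM (blue). Each point is 1 gene, vertical black lines are medians, and dotted lines mark a difference of 1.5 times. The ISGF3 targets have a median of 1.34, and the receptors, adaptors and inhibitors lie mostly within the dotted lines, with Usp18 far to the right.

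Neutrophil-like cells differed from microglia-like cells in which members were high. Irf7 measured 46.0 CPM (35.4 to 58.7) in the vehicle library and 292 CPM (263 to 323) in the corticosterone library, with a log2 ratio of 2.66 (2.28 to 3.07). In vehicle that level was 7.07-fold that of microglia-like cells of the same library. The share of cells thinned to 1000 UMIs with an Irf7 UMI was 6.49% (3.40 to 11.1) among 185 vehicle cells and 34.7% (29.0 to 40.7) among 271 corticosterone cells. At full depth the shares were 25.6% and 62.2%. Stat2 was at 33.1 and 91.3 CPM, a log2 ratio of 1.47 (0.96 to 1.99), and Irf9 at 92.7 and 154 CPM, a log2 ratio of 0.73 (0.40 to 1.06). Stat3 was at 87.0 and 140.0 CPM, a log2 ratio of 0.69 (0.35 to 1.03).

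The remaining members differed less or in the other direction. Irf2 was at 142 and 208 CPM, a log2 ratio of 0.56 (0.28 to 0.83). Irf8, which is low in mature neutrophils, was at 573 and 450 CPM, a log2 ratio of -0.35 (-0.50 to -0.19). The ratios of Irf1 (0.03), Irf5 (-0.00) and Irf3 (-0.30) had intervals that included 0. In all, 4 of 9 members were higher by at least 1.5 times, where 11.4% of 6265 genes were, and 0 were lower, where 14.7% were. With edgeR or DESeq2 scaling factors 5 were higher, Irf2 being the added one. With edgeR factors 15.4% of all genes were higher and 10.5% lower, and with DESeq2 factors 14.5% and 11.2%. With the mean of per-cell CPM 5 were higher, where 12.3% of genes were, and 2 lower, where 23.7% were. Without the 6% of barcodes with the most UMIs 4 were higher, where 12.6% of genes were, and 2 lower, where 20.3% were. The lower ones were Irf3 and Irf8 both times. The median over members was 0.56, against -0.06 for all genes. Neutrophil-like barcodes also held microglial transcripts: all 10 microglial markers were detected, summing to 29050 CPM for vehicle against 17255 CPM for corticosterone, and P2ry12 was at 4838 and 1876 CPM. Beside the neutrophil list at 41305 and 70648 CPM, that content moved with the group, and its part in the ratios of Irf8 and the other members was not tested.

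Border-associated macrophage-like cells gave values that depended on how the class was drawn. As first clustered, Irf7 measured 11.8 CPM (9.96 to 13.9) in the vehicle library and 51.7 CPM (46.4 to 57.5) in the corticosterone library, with a log2 ratio of 2.13 (1.85 to 2.42). Stat2 was at 34.9 and 75.0 CPM (log2 ratio 1.10) and Irf9 at 64.5 and 92.6 CPM (log2 ratio 0.52). By this drawing 2 of 9 members were higher by at least 1.5 times, where 6.45% of 6578 genes were, and 0 were lower, where 5.11% were, with a median of 0.03 against 0.02 for all genes. Irf7 passed the level of 20 CPM only through the corticosterone library here too. Of the 8 members that passed it in both libraries 1 was higher and 0 lower, with a median of 0.01. Microglial markers summed to 32514 CPM in the vehicle cells and 21617 CPM in the corticosterone cells of the class, and macrophage markers to 3784 and 8332 CPM, and their part in these ratios was not tested.

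At a Leiden resolution of 1.0, a setting of the clustering that splits cells more finely, 906 of the 1169 vehicle cells fell in a cluster of 918 vehicle and 2 corticosterone cells. In those 918 vehicle cells P2ry12 was at 5500 CPM and the macrophage marker Mrc1 at 679 CPM, and their median depth was 9138 UMIs. The macrophage-like cluster at that resolution held 262 vehicle cells, all from the class, with P2ry12 at 2505 CPM and Mrc1 at 2812 CPM, and 782 corticosterone cells, 778 of them from the class, at 2377 and 1924 CPM. Irf7 stood at 10.3 CPM in the 918 vehicle cells and at 31.8 CPM (20.9 to 46.2) in the 262, against 51.7 CPM in the 782 corticosterone cells. The log2 ratio of the class was then 0.70 for Irf7 and 0.21 for Stat2, with counting intervals of the Stat2 levels that overlapped (48.7 to 84.2 and 68.5 to 81.8 CPM). In the same drawing Irf8 was at 453 and 632 CPM, a log2 ratio of 0.48, and Irf5 at 180 and 275 CPM, a log2 ratio of 0.61. The 2 members higher by 1.5 times were then Irf7 and Irf5, in place of Irf7 and Stat2. In that drawing 8.44% of all genes were higher by as much, and 0 members were lower, where 8.76% of genes were.

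**Figure D4:**
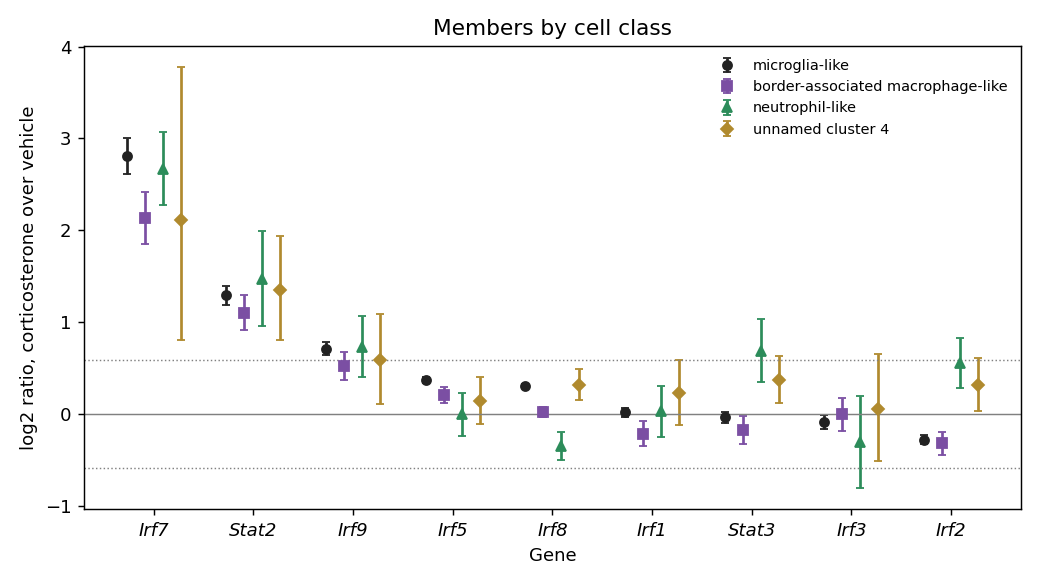
The log2 ratio of corticosterone over vehicle for the 9 genes in 4 sets of cells, with 95% counting intervals. Dotted lines mark 1.5 times. Irf7, Stat2 and Irf9 lie above 0 in all 4 sets, Irf8 and Irf2 have opposite signs in microglia-like and neutrophil-like cells, and unnamed cluster 4 is a cluster of low UMI counts. The macrophage-like values for Irf7 and Stat2 drop to 0.70 and 0.21 when the class is drawn more finely.

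Irf7 was also higher in corticosterone in 3 further sets of cells. In monocyte-like cells the vehicle library gave 17 Irf7 UMIs, or 77.2 CPM (45.0 to 124), and the corticosterone library 291 CPM (258 to 327). In unnamed cluster 4, of low depth, it was at 7.08 CPM (2.30 to 16.5), from 5 UMIs, and 30.5 CPM (23.5 to 38.9). In unnamed cluster 7, led by the granule genes Camp, Ngp and Ltf of developing neutrophils, it was at 42.0 CPM (29.7 to 57.7) and 94.4 CPM (76.9 to 115). The intervals of the 2 libraries did not overlap in any of these 3 sets, and the share of all genes with such intervals was not counted. In the monocyte-like class, monocyte markers summed to 4148 CPM for vehicle against 12659 CPM for corticosterone. Median depths were 2683 and 7785.5 UMIs. Their part in the Irf7 ratio was not tested. There, Irf7 and Stat2 were higher by at least 1.5 times, and 2 members were lower. The lower ones were Irf1, with a log2 ratio of -0.72 (-1.29 to -0.11), and Irf2, at -0.65 (-1.18 to -0.10). Irf9 was at 0.03 (-0.66 to 0.79). Unnamed cluster 8, of 185 vehicle and 8 corticosterone cells, gave 1 Irf7 UMI in vehicle and 0 in corticosterone. Among the 6 sets with at least 64 cells in each library, which leave out cluster 8 and the erythroid cell-like class, Irf8 and Irf5 were lowest in cluster 7, at 233 and 145 CPM for Irf8 and 89.5 and 72.0 CPM for Irf5.

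The members were also ordered over these 6 sets within the vehicle library. There, Irf7 was lowest in microglia-like cells, with cluster 4 next, then macrophage-like cells, cluster 7, neutrophil-like and monocyte-like cells. The intervals of cluster 4 overlapped those of both its neighbours, and the intervals of the last 3 sets overlapped each other. Irf8 in vehicle ran from microglia-like cells (691 CPM) through macrophage-like cells (620 CPM), neutrophil-like cells (573 CPM), cluster 4 (502 CPM) and monocyte-like cells (450 CPM) to cluster 7, and neighbours from macrophage-like to monocyte-like cells had overlapping intervals. Stat3 stood apart in cluster 4, where the vehicle library gave 229 CPM (195 to 267) and the corticosterone library 297 CPM (274 to 322). It lay between 87.0 and 98.2 CPM in the 5 other sets of vehicle cells. Irf1 in vehicle lay between 71.8 CPM in cluster 7 and 164 CPM in neutrophil-like cells. Irf3 lay between 35.4 and 62.1 CPM in vehicle, and its intervals overlapped in all sets but cluster 7, which lay below microglia-like and macrophage-like cells. These orders take the macrophage-like class as first clustered. In the 262 vehicle cells of the finer macrophage-like cluster Irf8 was at 453 CPM (409 to 500), a lower level than in neutrophil-like cells. Irf7 was at 31.8 CPM there, and Irf3 at 42.3 CPM (29.7 to 58.6), an interval that overlapped that of cluster 7. Microglial markers summed to 29050 CPM in vehicle neutrophil-like barcodes, and their part in these orders was not tested.

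Profiles were also compared over 16 points, formed by 8 sets of cells in 2 libraries, as Pearson correlations of log2(CPM + 1). The points share libraries, and several share a class. The microglia-like points also contain the cells of the sub-cluster points, which include the interferon-high group, so the values are descriptions. Irf7 went most closely with Rtp4 (r = 0.995), Sp100 (0.983) and Slfn5 (0.980). Stat2 went with Ifi209 (0.982) and Adar (0.964). Irf9 went with Rtp4 (0.945), G6pdx (0.935) and Irf7 (0.932), and the correlation of Stat2 with Irf7 was 0.92. Irf8 went with Cd81 (0.951) and Syngr2 (0.949), and Irf5 with Gde1 (0.980), Sowahc (0.972) and Rrbp1 (0.972). The correlation of Irf5 with Irf8 was 0.912, while that of Irf7 with Irf8 was -0.05. Irf1 went with Socs1 (0.839), Dtx3l (0.817) and Card6 (0.783).

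For the remaining members, Irf2 went with Ythdc1 (0.883), Ppp1r12a (0.856) and Tspan13 (0.856), Irf3 with Anks6 (0.884) and Birc6 (0.883), and Stat3 with Slain2 (0.817), Ceacam1 (0.811) and Abr (0.807). By these profiles Irf7, Stat2 and Irf9 formed 1 set and Irf5 with Irf8 another. In the GENCODE vM21 annotation 6 of the 9 members share exon bases with another gene, from 45 bases for Irf7 to 411 bases for Irf5, and whether the counting used strand is not given in the sources used here.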

How the data were processed

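Single-cell RNA libraries of sorted microglia were analysed from the matrices that the authors deposited, whose values are UMI counts for each gene in each barcode, not normalised. Per the submitters' processing notes, bcl2fastq 2.19 and the build GRCm38 were used. The aligner, the counting program and the annotation are not given in the sources used here. The files carry other group words than the labels, and groups follow the labels of the sample records. No column of other samples was present.

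Filters of 500 UMIs or more, 300 genes or more and no more than 20% mitochondrial UMIs removed 55 of 10555 vehicle and 230 of 18113 corticosterone barcodes. Counts were scaled to 10000 per cell, logged and clustered over both libraries (2000 variable genes, 30 components, 15 neighbours, Leiden resolution 0.5, leidenalg 0.10.2, Python 3.11.15). Of the members, Irf7, Stat2, Irf1 and Stat3 were among the variable genes. A cluster was named from at least 3 detected markers at 2 times their level elsewhere. Failing that, it was called microglia-like if at least 3 microglial markers were each detected in 10% of its cells. Their mean level also had to reach 0.5 times that over all cells. All microglia-like clusters were named by this second rule, and none passed the first. Cluster 4 stayed unnamed for its low UMI counts and clusters 7 and 8 for their leading genes, and a difference from the study may come from rebuilt names. Microglia-like cells were clustered again (1500 genes, 20 components, resolution 0.4). No doublet caller was run. Removal of the 6% of barcodes with the most UMIs was an alternative.

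UMIs were summed per class and library and scaled to CPM. Genes with a mean of at least 20 CPM formed the background, and intervals are exact Poisson, conditional (ratios) or Clopper-Pearson (shares) at the 95% level. The calculation was tested on simulated data. Named were all members, the highest and lowest gene of each pathway list, ligands with at least 1 UMI, and the 3 genes of most similar profile, with predicted, mitochondrial and ribosomal protein genes left out. Of the genes of similar profile, 3 are not reported here. Other genes are examples chosen after their values were seen. Alternatives were edgeR 4.0.16 and DESeq2 1.42.0 scaling, other filters, clusters and cell weights. The members and lists were chosen with earlier results of these data known.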

Additional observations from a re-analysis of the deposited data

Results flagged for a closer look

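For 2 members the difference between libraries ran in opposite directions in microglia-like and neutrophil-like cells, with counting intervals away from 0 in both. The log2 ratio of corticosterone over vehicle was 0.56 for Irf2 in neutrophil-like cells and -0.28 in microglia-like cells. For Irf8 it was -0.35 in neutrophil-like cells and 0.30 in microglia-like cells. With 1 library per group the difference between the classes was not tested. Neutrophil-like barcodes held less microglial RNA in corticosterone than in vehicle, with marker sums of 17255 and 29050 CPM, and its part in either value was not tested.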

How the results depend on the processing

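No paired analysis was possible because each group has 1 library and no test was made. The median log2 ratio of the members lay between 0.30 and 0.43 over 13 alternatives in microglia-like cells and between 0.45 and 0.76 over 9 in neutrophil-like cells. In macrophage-like cells it lay between -0.09 and 0.41, with the highest value at Leiden resolution 1.0, where Irf7 was at 0.70 and Stat2 at 0.21. With the members and lists kept out of the clustering the macrophage-like values were 0.93 and 0.28. In microglia-like cells the ratios were 1.07 to 1.42 for Stat2, 2.27 to 2.93 for Irf7 and 0.65 to 0.84 for Irf9. There, 3 members were higher by 1.5 times in each alternative at that fold, and 2 at a fold of 2, where 1.75% of genes were. Irf2, Irf5 and Irf8 kept their sign in all 12 alternatives, while Stat3 changed it in 4, Irf3 in 2 and Irf1 in 1. Scaling by edgeR factors moved the median of all genes by 0.10 and DESeq2 factors by 0.12, with 7.36% and 8.20% of genes higher and 3.37% and 2.98% lower. Without the filter on low counts 9.90% of 18256 genes were higher and 23.3% lower. Without the 4 sub-clusters led by genes of other cell types, an alternative chosen after seeing the data, Irf7 was at 2.79 and Stat2 at 1.26. Depth limits the smaller classes, with 64 vehicle monocyte-like and 17 erythroid cell-like cells.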
